A study of Mus musculus with 24 samples.

Results

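Collagens, laminins and integrins form the extracellular matrix under an epithelium and the receptors that hold cells to it. The genes described here are the 81 entries, of 49705 in the deposited table, whose symbol marks them as a collagen chain (44 genes), a laminin chain (11) or an integrin chain (26) and that lie on the reference chromosomes. They were followed through the formation of optic vesicle (OV) organoids from Rx-GFP K/I EB5 cells, a mouse embryonic stem cell (ESC) line in which GFP, knocked into the Rax (Rx) locus, reports expression of that eye field gene. All 8 groups carry the same knock-in and hold 3 replicate samples each, from 24 pooled organoids a sample. The groups are untreated Day 0 cells, live cells of organoids on Day 1, Day 2 and Day 3, and the GFP-positive and GFP-negative cells sorted from organoids on Day 4 and Day 5. Each organoid began from 4500 cells plated without attachment on day 0, in GMEM with 1.5% KOSR (serum replacement) by the labels, although the study's methods name a chemically defined medium for these first organoids, and growth factor-reduced Matrigel was added on day 1 to 2%. Matrigel is itself an extract of mouse basement membrane, but the libraries measured RNA from the cells and not the matrix around them. Day 0 samples preceded the Matrigel, and whether Day 1 samples were taken before or after its addition is not given. All later organoids received it, so the effect of Matrigel and that of time cannot be told apart. All samples derive from 1 knock-in line, and cells with weak GFP fell into the GFP-negative gate.

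Collagen chains wind into trimers. Fibrillar collagens build the fibres of connective tissue and of embryonic matrix, the fibril-associated (FACIT) collagens coat those fibres, and collagen IV forms the sheet-like network of basement membranes. Laminins are trimers of an alpha, a beta and a gamma chain and are the first network that an embryonic basement membrane needs. The trimer of Lama1, Lamb1 and Lamc1 is typical of early embryos and of Matrigel, and Lama5 replaces Lama1 in many later epithelia. Integrins are receptors made of an alpha and a beta chain. The alpha chain sets much of the choice of ligand: laminin for Itga6 and Itga3, fibronectin for Itga5, and vitronectin and other ligands with an RGD motif for Itgav. In the eye, a basement membrane surrounds the optic vesicle and separates it from the mesenchyme and the surface ectoderm.

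Collagen IV genes lie head to head in pairs, each pair transcribed outward from neighbouring starts. Col4a1 and Col4a2 were both called lower in GFP-positive cells on day 5, and Col4a5 and Col4a6 both called higher by day 3 and on day 4, although other comparisons called only 1 gene of a pair. Col4a1 (ENSMUSG00000031502, chromosome 8, 11198423 to 11312826, minus strand) and Col4a2 (ENSMUSG00000031503, chromosome 8, 11312805 to 11449287, plus strand) overlap by 22 bases at their 5′ ends in the deposited coordinates of mouse build mm10. Col4a5 (ENSMUSG00000031274, chromosome X, 141475385 to 141689234, plus strand) and Col4a6 (ENSMUSG00000031273, chromosome X, 141165403 to 141474076, minus strand) are separated by 1308 bases. RefSeq (GRCm38.p6) promoter windows, from 250 bases before to 50 bases after the start site, were found for 58 of the 81 members. The windows of the collagen IV pairs are shown because of these paired calls. Capitals mark the letters CCAAT and GGGCGG, known as the CCAAT box and the GC box, or their reverse complements, since both strands were searched. Within a window the motifs share no letters. Each sequence is written 5′ to 3′ on the strand of its gene.
Col4a1, chr8:11312777-11313076, minus strand: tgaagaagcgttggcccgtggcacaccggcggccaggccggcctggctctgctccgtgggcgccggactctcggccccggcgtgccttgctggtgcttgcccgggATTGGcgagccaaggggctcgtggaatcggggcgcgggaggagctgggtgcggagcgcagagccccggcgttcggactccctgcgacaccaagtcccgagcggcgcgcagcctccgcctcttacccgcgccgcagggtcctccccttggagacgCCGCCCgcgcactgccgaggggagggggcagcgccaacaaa
Col4a2, chr8:11312555-11312854, plus strand: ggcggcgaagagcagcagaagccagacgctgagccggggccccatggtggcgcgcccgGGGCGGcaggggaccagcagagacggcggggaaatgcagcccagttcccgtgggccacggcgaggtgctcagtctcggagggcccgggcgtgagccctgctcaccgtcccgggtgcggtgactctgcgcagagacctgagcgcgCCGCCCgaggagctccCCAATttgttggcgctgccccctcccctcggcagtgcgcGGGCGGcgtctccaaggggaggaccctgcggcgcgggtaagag
Col4a5, chrX:141475169-141475468, plus strand: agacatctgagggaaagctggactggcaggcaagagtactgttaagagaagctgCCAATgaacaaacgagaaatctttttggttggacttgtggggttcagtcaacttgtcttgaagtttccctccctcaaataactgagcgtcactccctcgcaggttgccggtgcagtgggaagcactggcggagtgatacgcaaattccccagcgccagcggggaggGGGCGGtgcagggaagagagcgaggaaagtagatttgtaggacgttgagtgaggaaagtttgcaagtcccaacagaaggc
Col4a6, chrX:141474027-141474326, minus strand: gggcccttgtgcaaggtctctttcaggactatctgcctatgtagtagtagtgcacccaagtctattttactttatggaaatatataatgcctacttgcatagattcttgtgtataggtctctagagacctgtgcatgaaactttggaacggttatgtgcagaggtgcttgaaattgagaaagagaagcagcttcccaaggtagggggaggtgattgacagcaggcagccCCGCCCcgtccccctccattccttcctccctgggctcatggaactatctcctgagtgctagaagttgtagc
The windows of Col4a1 and Col4a2 share 78 bases, read in opposite directions, with RefSeq start sites 21 bases apart. Those of Col4a5 and Col4a6 do not overlap, and their start sites lie 1343 bases apart. The GC content was 74% and 73.7% for the first pair and 52.7% and 48.3% for the other. The Col4a1 window holds 1 CCAAT box and 1 GC box, Col4a2 1 and 3, Col4a5 1 of each, and Col4a6 1 GC box and no CCAAT letters. The GC box of Col4a1 and the one after the start site of Col4a2 are the same bases of the shared stretch, read on opposite strands, so they are 1 site. Over all 32851 windows, 37.4% hold the CCAAT letters and 35.7% those of the GC box. Over the 64 windows of members, some of which have more than 1, the shares were 26.6% and 54.7%. On either strand, the letters TATAAA were in 13.6% of all windows and 7.81% of members' windows. These are matches of letters and were not tested as binding sites.

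Values are DESeq2-normalized counts, which are scaled for library size but not for gene length, so levels of different genes are compared only per kilobase of the longest coding transcript. They summed to between 39849111 and 51587535 in a library. The worth of 1 read was 0.809 to 1.40 normalized counts, so a value near 10 rests on about 10 reads and carries a large counting error. Of the 81 members, 75 reached 10 normalized counts in 3 or more libraries and entered the test (41 collagens, 11 laminins and 23 integrins). Col10a1, Col19a1, Col8a1, Itgad, Itgax and Itgb6 did not, and their highest group means lay between 0.378 and 26.4. Log2(normalized count + 1) was fitted with limma over all 21005 genes that passed, and a member was called at an adjusted p under 0.001 with an absolute log2 fold change above 1.5. Errors given with ± are SDs over 3 libraries. The labels call the samples triplicates and do not name separate cultures, while the study describes biological triplicates of organoid cultures. The p-values measure the spread between these samples. In Day 0 replicate 1, the rank correlation with the other Day 0 libraries was 0.953 and 0.954, against 0.979 to 0.993 for all other replicate pairs. That library also held most of the mesoderm and mesenchyme marker Acta2, and the 8 markers of that list summed to 405 to 5617 over the Day 0 libraries. Eye field and neuroectoderm markers (Rax, Pax6, Lhx2, Six3, Sox1 and Otx2) summed to 63242 to 65319 in GFP-positive and 22369.9 to 25611 in GFP-negative cells on day 4, and to 67075 to 74309 and 23109 to 23565 on day 5. In such bulk samples, fewer cells of a type and less RNA per cell cannot be told apart.

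Calls of members are read here against the share of all genes called in the same comparison and direction. From day 0 to day 1, 0 of 75 members rose (background over all genes 0.343%; 8 at an unadjusted p under 0.05 in limma) and 1 fell (background 0.395%). From day 1 to day 2, over the first day with Matrigel, 1 rose (background 0.943%) and 0 fell (background 0.528%; 21 at an unadjusted p under 0.05). From day 2 to day 3, 4 rose (background 0.714%) and 0 fell (background 0.29%; 14 at an unadjusted p under 0.05). These steps together were larger. Between day 0 and day 3, 8 rose (background 5.91%) and 11 fell (background 6.12%). In GFP-positive cells of day 4 against day 3, 9 were higher (background 3.33%) and 6 lower (background 7.36%), the latter a share near the background. In GFP-negative cells of day 4 against day 3, 8 were higher (background 2%) and 1 lower (background 0.871%). Both of these comparisons share the day 3 libraries. Between the gates, calls over all genes were mostly lower in GFP-positive cells, and so were those of members. On day 4, 7 were lower (background 3.63%) and 1 higher (background 0.328%), and on day 5 9 were lower (background 4.61%) and 1 higher (background 0.4%). From day 4 to day 5, 2 rose in GFP-positive cells (background 0.595%) and 0 fell (background 0.89%; 7 at an unadjusted p under 0.05). In GFP-negative cells 4 rose (background 0.762%) and 0 fell (background 0.509%; 2 at an unadjusted p under 0.05). The median log2 fold change over the members was -0.58 between the gates on day 5 and 0.49 from day 4 to day 5 in GFP-negative cells, against -0.00 and 0.01 over all genes tested. Leaving out 1 library moved some of these counts by more than 1.5 times. From day 1 to day 2, 2 rose without day 1 replicate 1 or day 0 replicate 1, and 1 fell without the latter. From day 2 to day 3, 2 rose without day 2 replicate 1, day 3 replicate 1 or day 3 replicate 2, and 1 fell without day 3 replicate 3. Between day 0 and day 3, 7 fell without day 0 replicate 2 or day 3 replicate 3, and without day 0 replicate 1, the library that stood apart, 10 rose and 12 fell. In GFP-negative cells of day 4 against day 3, 5 were higher without GFP-negative replicate 1 or 2, and 2 lower without day 3 replicate 1. On day 5, 0 were higher in GFP-positive cells without GFP-negative replicate 3. From day 4 to day 5, 1 rose in GFP-positive cells when any 1 of their 6 libraries was left out, and 2 in GFP-negative cells without day 4 replicate 3. Of the 73 calls, 50 were kept whichever library of the groups compared was left out, and none changed direction under any alternative. Fitting only the groups compared ended 40 of them. In that fit none of the calls was left in the steps from day 0 to 1, 1 to 2 and 2 to 3, where Col1a2 (adjusted p = 0.171), Col4a5, Col4a6, Col6a1, Col9a1 and Col23a1 had been called, while Itgb7 was called lower from day 1 to day 2. Between day 0 and day 3 the calls of Col6a2 and Col9a1 were left. On day 4 it ended those of Col11a2, Col13a1, Col23a1 and Lama3 in GFP-negative cells against day 3, that of Col20a1 in GFP-positive cells against day 3, and those of Col4a2, Col13a1, Col14a1 and Itga1 between the gates. On day 5 it ended those of Lama3, Col14a1 and Itgb7 between the gates and, in GFP-negative cells against day 4, those of Col2a1, Col3a1 and Col26a1.

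**Figure D1:**
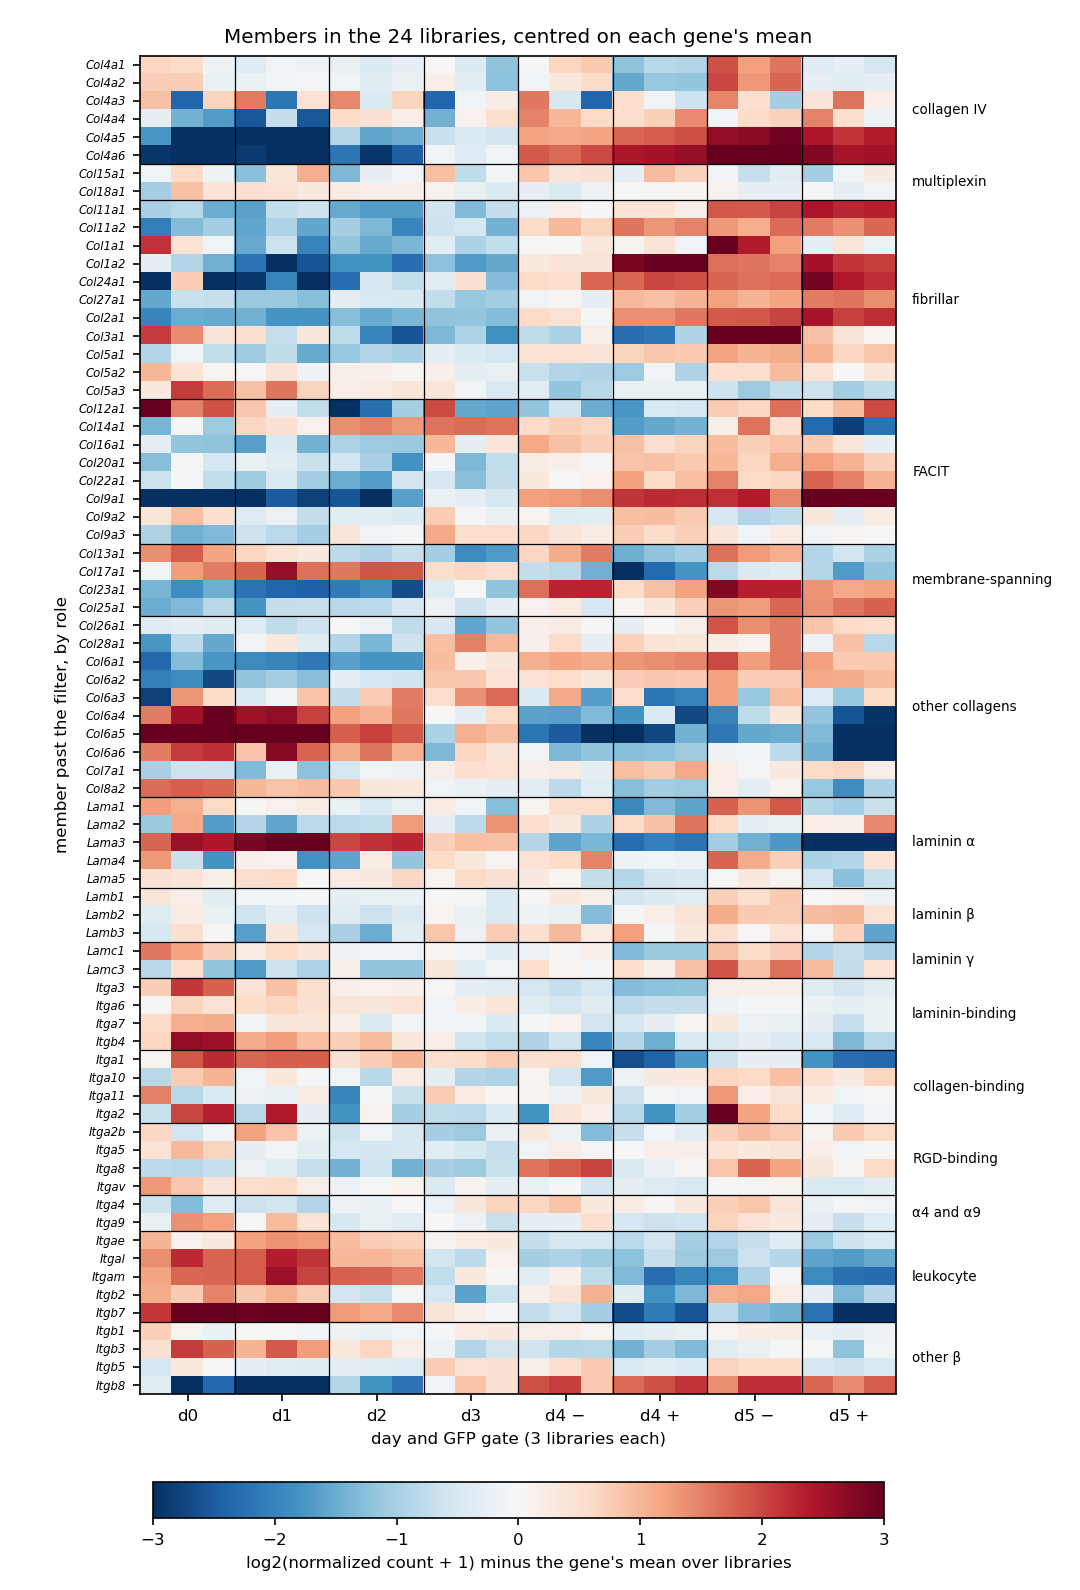
Rows are 74 of the 75 members past the filter, grouped by role, and columns are the 24 libraries, 3 for each day and GFP gate. Colour is log2(normalized count + 1) minus the gene's mean over the libraries and saturates at 3 in either direction. Col4a5, Col4a6 and Col9a1 run from blue on days 0 to 2 to red on days 4 and 5, Lama3 and Itgb7 run the other way, and Col1a2 is deepest red in GFP-positive cells of day 4.

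Among the collagen IV chains, Col4a1 and Col4a2 were lower in the GFP-positive gate than in the GFP-negative one, whereas Col4a5 and Col4a6 rose in both gates. Col4a1 measured 17953, 16754 and 10282 normalized counts on day 0 and 11449.5, 8636 and 4967 on day 3. In GFP-negative cells it measured 11197, 17879 and 19801 on day 4 and 42667, 26679 and 34979 on day 5, and in GFP-positive cells 4965, 6393 and 6225 and 8692, 9556 and 8029. The gates did not overlap on either day. On day 5 the difference was 3.91-fold (log2 fold change -1.97, standard error 0.26, adjusted p = 7.7e-06). On day 4 it fell short of the fold threshold and was not called (log2 fold change -1.44, standard error 0.26, adjusted p = 0.000339), but was called without day 4 GFP-negative replicate 1 (log2 fold change -1.69, adjusted p = 0.000141). Its partner Col4a2, which joins Col4a1 in the common collagen IV trimer, followed it. Col4a2 measured 5148, 6864 and 8011 in GFP-negative and 1873, 2488 and 2465 in GFP-positive cells on day 4, a called difference (log2 fold change -1.54, standard error 0.28, adjusted p = 0.000355). That call ended without day 4 GFP-negative replicate 2 or 3 or day 4 GFP-positive replicate 1, 2 or 3 (log2 fold changes from -1.61 to -1.40, adjusted p from 0.00118 to 0.00367) and without the mean-variance trend (log2 fold change -1.54, adjusted p = 0.00104). On day 5 the values were 21795, 13385 and 18268 against 4617, 4267 and 4461 (log2 fold change -1.97, standard error 0.28, adjusted p = 1.76e-05). Per kilobase, Col4a1 lay at 1.75 to 2.59 times Col4a2 in every library, while Col4a1 itself ranged from 4965 to 42667 normalized counts.

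Col4a5 and Col4a6, whose chains assemble with each other in the basement membranes of several epithelia, began low. Col4a5 measured 36.2, 23.6 and 31.4 on day 1 and 174, 108 and 112 on day 2, the only member called as higher in that step (log2 fold change 2.06, standard error 0.30, adjusted p = 5.91e-05). It went on to 199.6, 238 and 217 on day 3 and then to 1050.3, 1123 and 1222 in GFP-positive cells (log2 fold change 2.37, standard error 0.30, adjusted p = 1.74e-06) and 718, 697 and 724 in GFP-negative cells (log2 fold change 1.71, standard error 0.30, adjusted p = 0.00032) on day 4. The GFP-negative call ended without day 3 replicate 1, 2 or 3 or day 4 GFP-negative replicate 1, 2 or 3 (log2 fold changes from 1.64 to 1.77, adjusted p from 0.00127 to 0.00233). Each of these steps separated all libraries of the groups compared. Col4a6 measured 31.7, 9.62 and 15 on day 1, 52.3, 30.5 and 42.5 on day 2 and 223, 181 and 216 on day 3 (log2 fold change 2.31, standard error 0.32, adjusted p = 5.47e-05). Without day 1 replicate 1 its rise from day 1 to day 2 was called as well. On day 4 it stood at 1277, 1344 and 1459.9 in GFP-positive cells (log2 fold change 2.72, standard error 0.32, adjusted p = 6.44e-07) and 846, 774 and 934 in GFP-negative cells (log2 fold change 2.04, standard error 0.32, adjusted p = 9.51e-05). By day 5 the means were 1584 ± 159 and 2167 ± 219.8 for Col4a5 and 1438 ± 157 and 2234 ± 209.8 for Col4a6, in GFP-positive and GFP-negative cells. Per kilobase, Col4a5 was 3.22 ± 0.477 times Col4a6 on day 2 and 1.09 ± 0.219 times on day 3, and between 0.788 and 1.33 times in every library from day 3 on. The remaining chains Col4a3 and Col4a4, known from the kidney filter, reached at most 15 and 15.3 normalized counts. As a share of all collagen IV RNA per kilobase, Col4a5 and Col4a6 made up 10.8% ± 0.789 and 12.7% ± 1.03 in GFP-positive cells of day 4 and 3.05% ± 0.845 and 3.57% ± 0.951 in GFP-negative cells. On day 0 they held 0.219% ± 0.123 and 0.0790% ± 0.0280.

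**Figure D2:**
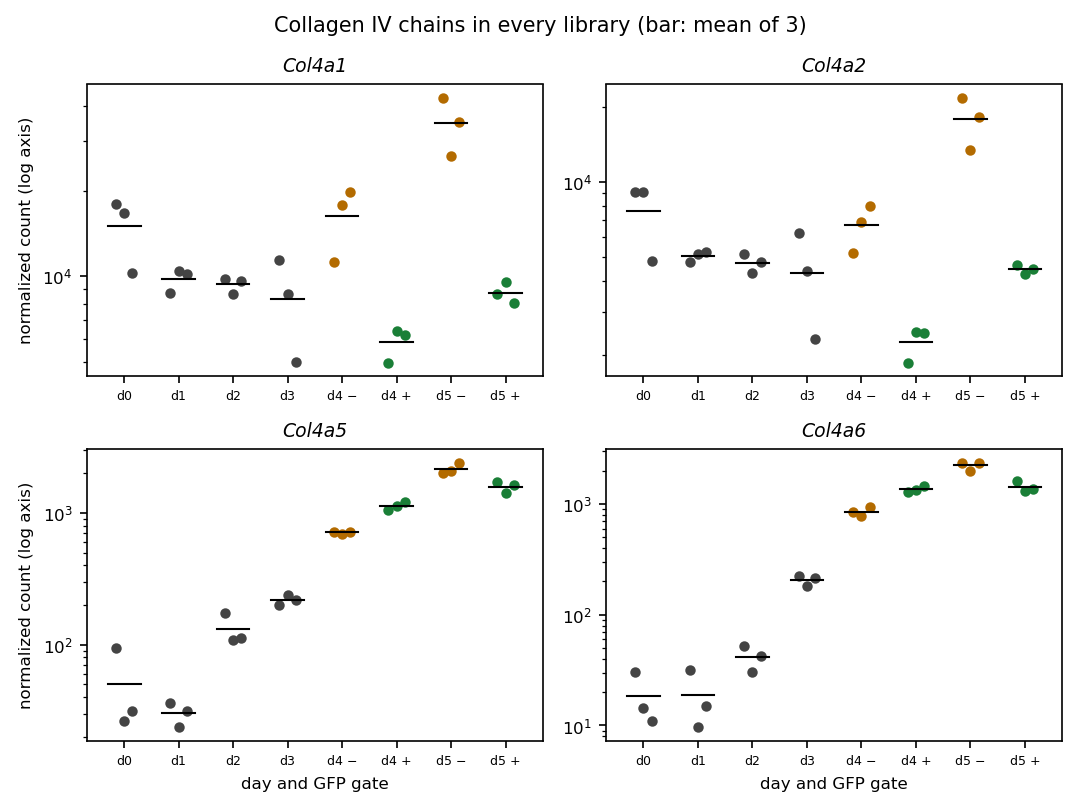
Each dot is 1 library (grey, days 0 to 3; orange, GFP-negative; green, GFP-positive) and each bar the mean of 3, on a log axis of normalized counts against day and gate. Col4a1 and Col4a2 part between the gates on days 4 and 5, and Col4a5 and Col4a6 climb from at most 94.2 and 30.2 on day 0 to at least 1410.0 and 1323 on day 5.

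Among the laminins, the chains of the early embryonic trimer were lower in the GFP-positive gate than in the GFP-negative one, with Lama1 called on both days and Lamc1 on day 5. Lama1 (ENSMUSG00000032796, chromosome 17, 67697259 to 67822647, plus strand) measured 9137, 8015 and 5798 on day 0 and 4555, 3475 and 1565 on day 3, a difference that was not called (log2 fold change -1.37, standard error 0.27, adjusted p = 0.000291). It was called without day 0 replicate 3 (log2 fold change -1.55, adjusted p = 0.000244) or day 3 replicate 1 (log2 fold change -1.69, adjusted p = 3.25e-05). On day 4 it stood at 4018, 5306 and 5521 in GFP-negative and 999.6, 1526 and 1278 in GFP-positive cells, lower by 3.92-fold in the latter (log2 fold change -1.97, standard error 0.27, adjusted p = 1.41e-05). On day 5 the values were 12990.3, 9665 and 13950.1 and 2108, 1886 and 2413, a 5.67-fold difference (log2 fold change -2.50, standard error 0.27, adjusted p = 5.25e-07). The gates were separated on both days. Lamc1 (ENSMUSG00000026478, chromosome 1, 153218922 to 153332786, minus strand), the gamma chain of most laminins, was the laminin with the highest mean per kilobase on day 0 (3106 ± 920.3). It measured 19088, 15025 and 17310.3 in GFP-negative and 5571, 6337 and 5356 in GFP-positive cells on day 5 (log2 fold change -1.57, standard error 0.16, adjusted p = 3.54e-07), a call that ended without day 5 GFP-negative replicate 1 (log2 fold change -1.49, adjusted p = 7.09e-06). On day 4 its difference of -1.20 (standard error 0.16, adjusted p = 1.53e-05) was below the fold threshold, although the groups did not overlap. Lamb1, the beta chain of the same trimer, differed less. It measured 12938, 11203 and 13456 in GFP-negative and 7752, 8570.4 and 6948 in GFP-positive cells on day 5 and was not called (log2 fold change -0.69, standard error 0.14, adjusted p = 0.00109). Per kilobase, Lamb1 was 0.478 ± 0.0432 times Lamc1 on day 0, 0.967 ± 0.0670 times in GFP-negative cells of day 5 and 1.78 ± 0.0624 times in GFP-positive cells of day 5.

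Lama5 (ENSMUSG00000015647, chromosome 2, 180176373 to 180225859, minus strand), the alpha chain of later epithelia, was called in no comparison. It measured 12039, 11488 and 9924 on day 0 and 9403, 13062 and 12114 on day 3. In GFP-positive cells it measured 4908, 5974 and 6337 on day 4 and 5921, 3689 and 5508 on day 5, and in GFP-negative cells 10632, 9296 and 5414 and 8935, 10737 and 9308. The gates did not overlap on day 5 (log2 fold change -0.96, standard error 0.22, adjusted p = 0.00302) and overlapped on day 4, and the fall from day 3 to GFP-positive cells of day 4 was below the fold threshold (log2 fold change -1.0, standard error 0.22, adjusted p = 0.000928). Of all laminin alpha RNA per kilobase, Lama5 made up 73.7% ± 11.3 on day 3, 77.4% ± 2.05 in GFP-positive cells of day 4 and 64.9% ± 4.20 in GFP-positive cells of day 5. Lama1 made up 59.1% ± 6.86 in GFP-negative cells of day 5, the group in which its share was highest. On day 3 Lama1 spanned 1565 to 4555 between replicates, so the shares of that day carry a wide error.

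Lama3, an alpha chain of the laminin that anchors skin-like epithelia, was highest on day 1 and lower on each later day up to day 4. Lama3 measured 304, 536 and 489 on day 0, 654, 812 and 792 on day 1, 365, 415 and 438 on day 2 and 148, 169 and 165 on day 3. Its differences from day 1 to day 2 (log2 fold change -0.89, standard error 0.22, adjusted p = 0.0083), from day 2 to day 3 (log2 fold change -1.33, standard error 0.22, adjusted p = 0.000396) and from day 0 to day 3 (log2 fold change -1.42, standard error 0.22, adjusted p = 2.64e-05) were not called. The last was called without day 0 replicate 1 (log2 fold change -1.67) and under quantile normalization (-1.51). It fell to 17.6, 20.9 and 18.7 in GFP-positive (log2 fold change -3.01, standard error 0.22, adjusted p = 7.14e-10) and 48.4, 29.5 and 33.9 in GFP-negative cells (log2 fold change -2.11, standard error 0.22, adjusted p = 8.5e-07) on day 4, and the gates were apart on both days, on day 4 without a call (log2 fold change -0.90, standard error 0.22, adjusted p = 0.00662) and on day 5 with one, at 7.52, 7.07 and 7.50 against 43.7, 32.6 and 26.5 (log2 fold change -2.05, standard error 0.22, adjusted p = 6.83e-07). All libraries of each of these comparisons were separated. Lamb3, a beta chain that assembles with it, was called in no comparison, with group means of 31.8 to 89.3. Lamb2, which replaces Lamb1 in many mature basement membranes, measured 1074, 1018 and 484 on day 4 and 2576, 2077 and 2011 on day 5 in GFP-negative cells, below the fold threshold (log2 fold change 1.45, standard error 0.24, adjusted p = 0.000336). It was called under quantile normalization (log2 fold change 1.51) and without day 4 GFP-negative replicate 1 (1.65) or 2 (1.61). Lama2, Lama4 and Lamc3 reached at most 72.5, 168 and 50.7 normalized counts and were called in no comparison.

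**Figure D3:**
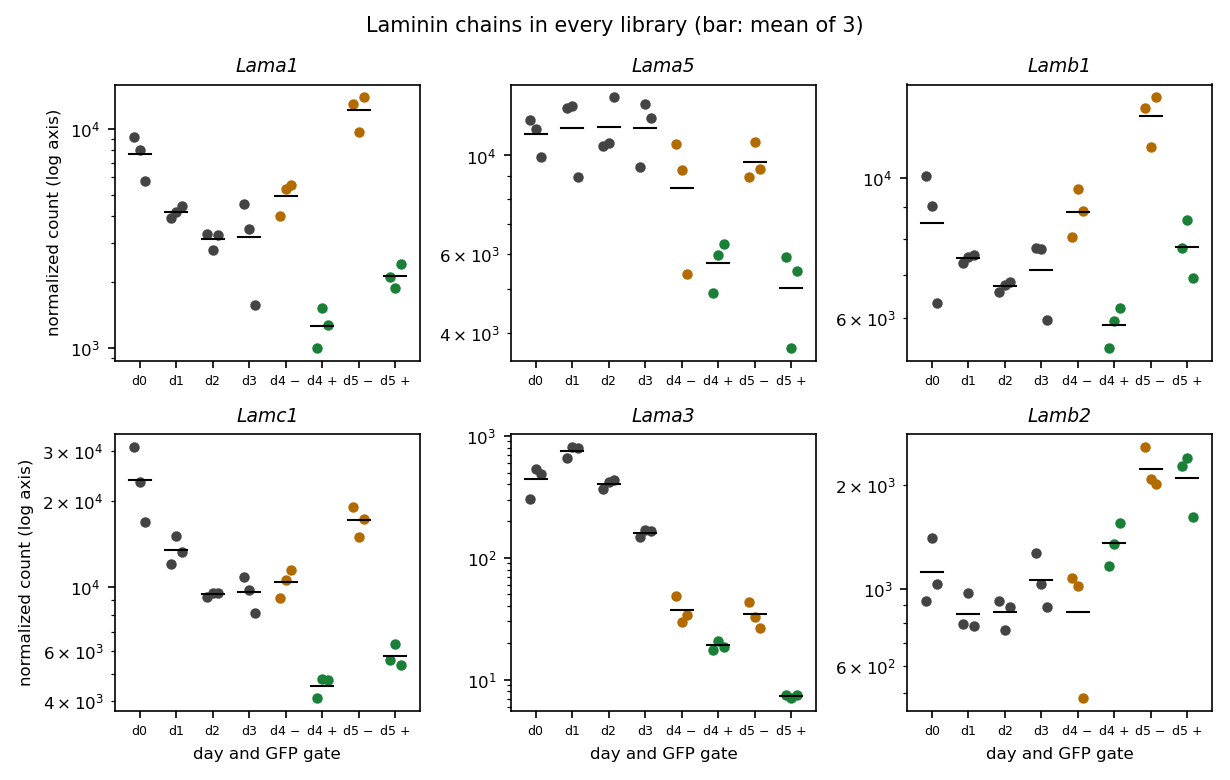
Each dot is 1 library (grey, days 0 to 3; orange, GFP-negative; green, GFP-positive) and each bar the mean of 3, on a log axis of normalized counts against day and gate. Lama1 and Lamc1 lie lower in the GFP-positive gate than in the GFP-negative one on days 4 and 5 with no overlap, Lama5 and Lamb1 vary less, and Lama3 falls from at least 654 on day 1 to at most 43.7 on day 5.

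Sums of markers listed for other cell types were also lower in the GFP-positive gate. Extraembryonic endoderm lays down a thick basement membrane in the embryo, and its 10 markers (Gata4, Gata6, Sox17, Sox7, Dab2, Foxa2, Ttr, Afp, Apoa1 and Pdgfra) summed to 5778 to 9087 in GFP-negative and 1744 to 2492 in GFP-positive cells on day 4. On day 5 the sums were 10487 to 12268 and 2069 to 2873, and 6 and 8 of the 10 were called lower in GFP-positive cells on days 4 and 5. Afp, a defining marker, had a highest group mean of 14.7, and Apoa1 was under 10 in GFP-positive cells of day 5. Endothelial markers, 7 of 8 tested, summed to 1077 to 1911 in GFP-negative and 198 to 306 in GFP-positive cells on day 4, with Kdr (10.2-fold) and Pecam1 (4.89-fold) called lower in the latter. The sums of the whole list were 1676 to 2386 and 758 to 916 on day 5, with 5 called lower in GFP-positive cells and Emcn under 10 in every group. Kdr rose in GFP-positive cells from day 4 to day 5 (log2 fold change 2.93, standard error 0.41, adjusted p = 4.23e-05). Cdh5, Tie1 and Cldn5 were under 10 in GFP-positive cells of day 5. On day 0 the endoderm markers had summed to 4266 to 7020 and the endothelial ones to 2526 to 5417, so these lists are not particular to the GFP-negative gate. The 6 pluripotency markers (Pou5f1, Nanog, Zfp42, Esrrb, Klf4 and Fgf5) were all called lower in GFP-positive cells on both days, with sums of 13779 to 16333 against 1267 to 2100.3 on day 4. Of surface ectoderm markers, 3 of 5 were tested and 0 was called between the gates on day 5 (3 lower at an unadjusted p under 0.05 in limma), with sums of 6331 to 10384 and 2915 to 3102 and Krt5 and Trp63 under 10. The part of these cells in the results was not tested.

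Of the fibrillar collagens, 4 of 11 rose (background 3.33%) and 0 fell (background 7.36%) in GFP-positive cells of day 4 against day 3, and 3 and 0 in GFP-negative cells (background 2% and 0.871%), with 1 and 1 lower at an unadjusted p under 0.05 in limma. The rise was led by Col1a2 (ENSMUSG00000029661, chromosome 6, 4504814 to 4541544, plus strand), a chain of type I collagen, the collagen of bone, skin and tendon. Col1a2 measured 262, 187 and 211 on day 3, 749, 805 and 806 in GFP-negative cells of day 4 and 4354, 4792 and 5161 in GFP-positive cells of day 4. These 3 groups were fully separated, and the rise into GFP-positive cells was 21.7-fold (log2 fold change 4.44, standard error 0.28, adjusted p = 6.67e-11). The rise into GFP-negative cells was smaller (log2 fold change 1.85, standard error 0.28, adjusted p = 7.24e-05), and the gates differed on day 4 (log2 fold change 2.60, standard error 0.28, adjusted p = 8.16e-07). On day 5 the values were 3486, 2706 and 2602 in GFP-positive and 1924, 1867 and 1732 in GFP-negative cells, a difference that was not called (log2 fold change 0.66, standard error 0.28, adjusted p = 0.134) although the libraries did not overlap. Earlier, Col1a2 had fallen from 506, 335 and 225 on day 0 to 130.3, 46.5 and 102 on day 1, the only member called in that step (log2 fold change -1.97, standard error 0.28, adjusted p = 9.39e-05). That call ended in the fit of only the groups compared (adjusted p = 0.171).

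Col1a1, the chain with which Col1a2 forms type I collagen, was not called with it. Col1a1 measured 119, 76.7 and 90.0 on day 3 and 161, 196 and 139 in GFP-positive cells of day 4 (log2 fold change 0.80, standard error 0.50, adjusted p = 0.229), with the libraries separated. Per kilobase, Col1a2 was 2.58 ± 0.130 times Col1a1 on day 3, 5.39 ± 0.596 times in GFP-negative cells of day 4 and 32.7 ± 7.37 times in GFP-positive cells of day 4. Col1a1 was highest in GFP-negative cells of day 5, at 1812, 791 and 355, against 123, 193 and 132 in GFP-positive cells. Those groups did not overlap, but the spread within the GFP-negative libraries was wide and the difference was not called (log2 fold change -2.44, standard error 0.50, adjusted p = 0.00116). It was called without day 5 GFP-negative replicate 3 (adjusted p = 0.000161), without day 0 replicate 1 (adjusted p = 9.74e-05) and under the replicate block (adjusted p = 0.000640), and over all alternatives the adjusted p ran up to 0.023. With 1 library left out, its log2 fold change ran from -3.02 to -1.85. Day 0 replicate 1 held 678 normalized counts of Col1a1, the highest of the days before sorting.

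Col2a1 (ENSMUSG00000022483, chromosome 15, 97975602 to 98004695, minus strand), the main collagen of cartilage and of the vitreous and also made by embryonic neuroepithelium, was second to Col18a1 among the collagens per kilobase in GFP-positive cells of both days. It measured 1087, 1115 and 1019 on day 3, 6484, 6473 and 7510.1 in GFP-positive cells of day 4 (log2 fold change 2.66, standard error 0.15, adjusted p = 1.34e-11) and 3735, 3354 and 2458 in GFP-negative cells (log2 fold change 1.55, standard error 0.15, adjusted p = 3.29e-07). The GFP-negative call ended without day 4 GFP-negative replicate 1 or 2 (log2 fold changes from 1.42 to 1.50, adjusted p from 4.32e-06 to 6.76e-06). On day 5 it reached 13835, 10406 and 11666 in GFP-positive and 8944, 9097 and 10266 in GFP-negative cells, the latter a called rise from day 4 (log2 fold change 1.59, standard error 0.15, adjusted p = 7.29e-07) that ended without day 4 GFP-negative replicate 3 (log2 fold change 1.41, adjusted p = 5.84e-06). All libraries of day 5 were above all of day 4. Of all collagen RNA per kilobase, Col2a1 took 22.6% ± 1.39 in GFP-positive cells of day 5 and 11.8% ± 2.04 in GFP-negative cells. Col11a1 and Col11a2, which join Col2a1 in cartilage fibrils, rose as well. Col11a1 measured 359, 359 and 300.3 on day 4 and 1459.8, 1291 and 1354 on day 5 in GFP-positive cells (log2 fold change 2.01, standard error 0.23, adjusted p = 3.27e-06), and 239, 308 and 260.0 and 975, 962 and 1096 in GFP-negative cells (log2 fold change 1.91, standard error 0.23, adjusted p = 7.82e-06). Col11a2 measured 116, 123 and 66.3 on day 3, 548, 449 and 504 in GFP-positive (log2 fold change 2.33, standard error 0.29, adjusted p = 1.15e-06) and 261, 352 and 284 in GFP-negative cells (log2 fold change 1.58, standard error 0.29, adjusted p = 0.000416) on day 4, and the latter call ended without day 3 replicate 1 or 3 or day 4 GFP-negative replicate 1, 2 or 3 (log2 fold changes from 1.30 to 1.70, adjusted p from 0.00102 to 0.00436). Col27a1, a collagen of developing cartilage, rose to 728, 680.4 and 749 in GFP-positive cells of day 4 from 219, 166 and 178 (log2 fold change 1.94, standard error 0.18, adjusted p = 1.4e-08). In GFP-negative cells of day 4 it measured 342, 377 and 310, also above every day 3 library, without a call. Col5a1, which seeds type I fibrils, was higher in GFP-positive cells of day 4 too, without passing the fold threshold (log2 fold change 1.16, standard error 0.17, adjusted p = 1.58e-05). Col5a2, Col5a3 and Col24a1 were called in no comparison. Without day 0 replicate 1, Col5a3 was called lower on day 3 than on day 0 (log2 fold change -1.96, against -1.42 with that library).

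Col3a1, a collagen of soft connective tissue, was low and stood out in 1 group. It measured 112, 69.5 and 33.5 on day 0 and 9.28, 12.9 and 6.39 on day 3 (log2 fold change -2.67, standard error 0.52, adjusted p = 0.000258), a call that ended without day 0 replicate 1 or 2 or day 3 replicate 1 or 3 (log2 fold changes from -2.68 to -2.28, adjusted p from 0.00118 to 0.00231). In GFP-negative cells it rose from 14.6, 12.7 and 28.9 on day 4 to 389, 219.9 and 433 on day 5 (log2 fold change 4.17, standard error 0.52, adjusted p = 1.42e-05), while GFP-positive cells of day 5 held 47.5, 33.5 and 26.3 (log2 fold change -3.22, standard error 0.52, adjusted p = 9.33e-05). The call between the gates ended without day 5 GFP-negative replicate 3 (log2 fold change -3.04, adjusted p = 0.00104) and under quantile normalization (log2 fold change -2.76, adjusted p = 0.00152). Mesoderm and mesenchyme markers (T, Mesp1, Tbx6, Twist1, Prrx1, Pdgfrb, Acta2 and Foxf1) summed to 4158 to 5051 in day 5 GFP-negative and 1087 to 1196 in GFP-positive cells, and 4 of the 8 were called lower in GFP-positive cells. On day 4 they summed to 3133 to 4873 and 799 to 1018, with 4 called lower. Their part in the values of Col3a1 and Col1a1 was not tested.

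**Figure D4:**
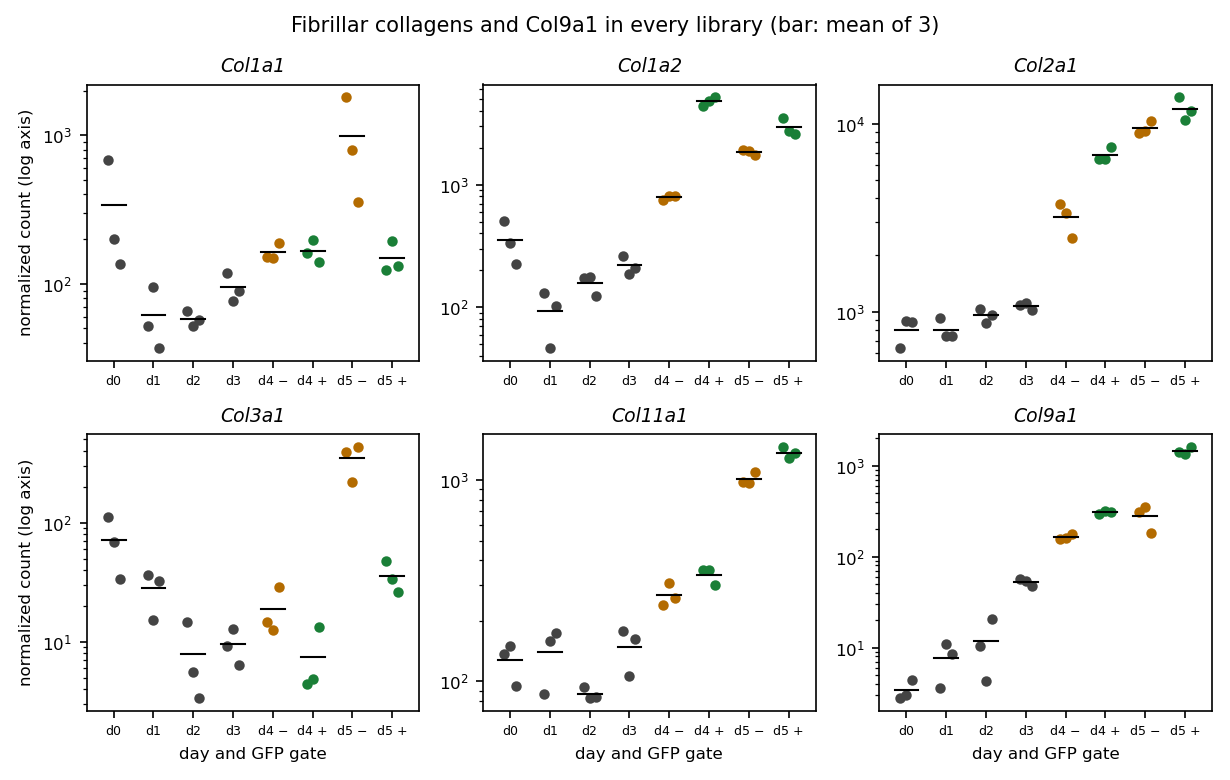
Each dot is 1 library (grey, days 0 to 3; orange, GFP-negative; green, GFP-positive) and each bar the mean of 3, on a log axis of normalized counts against day and gate. Col1a2 is highest in GFP-positive cells of day 4 while Col1a1 reaches 196 there, Col3a1 is highest in GFP-negative cells of day 5, and Col9a1 is highest in GFP-positive cells of day 5.

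Col9a1 (ENSMUSG00000026147, chromosome 1, 24177610 to 24252684, plus strand), a FACIT collagen of cartilage and of the vitreous, climbed at almost every stage. It measured 2.78, 2.98 and 4.42 on day 0, 10.3, 4.27 and 20.7 on day 2 and 57.1, 54.5 and 47.1 on day 3. Both the rise from day 0 (log2 fold change 3.63, standard error 0.38, adjusted p = 1.31e-07) and that from day 2 (log2 fold change 2.30, standard error 0.38, adjusted p = 0.000338) were called, but the latter ended without day 2 replicate 1 or 2 or day 3 replicate 1, 2 or 3 (log2 fold changes from 1.78 to 2.38, adjusted p from 0.00149 to 0.00274). In GFP-positive cells it rose further to 297, 318 and 311 on day 4 (log2 fold change 2.53, standard error 0.38, adjusted p = 1.69e-05) and 1410.3, 1336 and 1611 on day 5 (log2 fold change 2.23, standard error 0.38, adjusted p = 0.000416). The step from day 4 to day 5 ended without day 4 GFP-positive replicate 1, 2 or 3 or day 5 GFP-positive replicate 1, 2 or 3 (log2 fold changes from 2.15 to 2.29, adjusted p from 0.00194 to 0.00334) and under quantile normalization (log2 fold change 2.12, adjusted p = 0.00153). Day 5 GFP-negative cells held 307, 349 and 182, below every GFP-positive library, and Col9a1 was the only member called higher in GFP-positive cells on that day (log2 fold change 2.42, standard error 0.38, adjusted p = 7.22e-05). That call ended without day 5 GFP-negative replicate 3 (log2 fold change 2.14, adjusted p = 0.001). On day 4 its difference between the gates was 0.90 (standard error 0.38, adjusted p = 0.13) and was not called. Col9a2 and Col9a3, the chains that complete the Col9a1 trimer, were already present on day 0 and took other courses. Col9a3 rose from 182, 127 and 138 on day 0 to 756, 498 and 500.4 on day 3 (log2 fold change 1.95, standard error 0.18, adjusted p = 2.4e-08), and Col9a2 was called in no comparison, with group means of 336 to 1001. Per kilobase, Col9a1 was 0.00320 ± 0.00110 times Col9a2 on day 0, 0.235 ± 0.0142 times in GFP-positive cells of day 4 and 1.92 ± 0.372 times in GFP-positive cells of day 5.

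Of the other FACIT collagens, Col14a1 also rose by day 3 but was lower in GFP-positive cells. It rose from 12.0, 32.5 and 15.2 on day 0 to 105, 109 and 106 on day 3 (log2 fold change 2.49, standard error 0.34, adjusted p = 3.85e-06) and was at 9.75, 10.9 and 11.8 in GFP-positive cells of day 4 (log2 fold change -3.19, standard error 0.34, adjusted p = 1.31e-07). Between the gates it was lower in GFP-positive cells on day 4, where GFP-negative cells held 49.8, 55.6 and 51.6 (log2 fold change -2.18, standard error 0.34, adjusted p = 6.28e-05), and on day 5, at 5.86, 3.83 and 6.39 against 37.6, 104 and 47.6 (log2 fold change -3.22, standard error 0.34, adjusted p = 3.54e-07). No libraries of the gates overlapped on either day. Col20a1 and Col22a1 were higher in GFP-positive cells of day 4 than on day 3. Col22a1 measured 441, 284 and 349 against 133, 77.7 and 113 (log2 fold change 1.73, standard error 0.31, adjusted p = 0.000112), a call that ended without day 3 replicate 2 or day 4 GFP-positive replicate 1 (log2 fold changes from 1.51 to 1.57, adjusted p from 0.00128 to 0.0014). Col20a1 measured 201, 205 and 194 against 109, 43.0 and 66.1 (log2 fold change 1.55, standard error 0.33, adjusted p = 0.000681). Its call, close to the threshold, ended without day 3 replicate 2 or 3 or day 4 GFP-positive replicate 1, 2 or 3 (log2 fold changes from 1.22 to 1.57, adjusted p from 0.0028 to 0.00793), without the mean-variance trend (log2 fold change 1.55, adjusted p = 0.00108), with no filter on low values (log2 fold change 1.55, adjusted p = 0.00106) and with 5 added in place of 1 (log2 fold change 1.49, adjusted p = 0.000549). Col12a1 and Col16a1 were called in no comparison with all libraries. Between day 0 and day 3, Col16a1 was called higher without day 0 replicate 1 (log2 fold change 1.56, against 1.25), and Col12a1 lower without day 3 replicate 1 (-4.01, against -2.84). Of all FACIT chains tested, 3 of 8 rose (background 5.91%) and 0 fell (background 6.12%) between day 0 and day 3 (1 lower at an unadjusted p under 0.05 in limma). Those of Col14a1 and Col9a3 ended in the fit of only the groups compared.

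The membrane-spanning collagens sit in the cell surface. Col13a1 fell from 313, 422 and 272 on day 0 to 58.0, 31.4 and 35.8 on day 3 (log2 fold change -3.0, standard error 0.25, adjusted p = 4.4e-09). It then rose in GFP-negative cells to 182, 258 and 349 on day 4 (log2 fold change 2.63, standard error 0.25, adjusted p = 1.95e-07), against 42.8, 51.2 and 57.7 in GFP-positive cells (log2 fold change -2.32, standard error 0.25, adjusted p = 6.98e-07), and the gates stayed apart on day 5, at 378, 291 and 255 and 64.5, 80.4 and 61.4 (log2 fold change -2.14, standard error 0.25, adjusted p = 1.64e-06). The gates did not overlap on either day. Col23a1 rose from 34.7, 41.3 and 23.4 on day 2 to 118, 154 and 65.6 on day 3 (log2 fold change 1.69, standard error 0.27, adjusted p = 0.000262), a call that ended without day 2 replicate 1 or 3 or day 3 replicate 1 or 2 (log2 fold changes from 1.42 to 1.74, adjusted p from 0.00135 to 0.00309). It went on to 487, 749 and 755 in GFP-negative cells of day 4 (log2 fold change 2.61, standard error 0.27, adjusted p = 6.83e-07). In GFP-positive cells of day 4 it measured 227, 283 and 359, also above every day 3 library, without a call. Col17a1, a component of the junctions that fix skin epithelium to its basement membrane, fell from 90.1, 97.1 and 88.9 on day 3 to 5.36, 11.6 and 17.5 in GFP-positive cells of day 4 (log2 fold change -3.03, standard error 0.40, adjusted p = 2.76e-06). In GFP-negative cells of day 4 it measured 37.5, 35.1 and 22.4, also below every day 3 library, without a call. On day 5 it stood at 34.0, 18.6 and 27.2 in GFP-positive and 35.0, 46.4 and 48.7 in GFP-negative cells. Col25a1 was called in no comparison, with means of 15.2 on day 0 and 109.7 in GFP-positive cells of day 5.

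Col18a1 (ENSMUSG00000001435, chromosome 10, 77052178 to 77166548, minus strand), a basement membrane collagen that carries heparan sulphate and is rich around the eye, had the highest mean level per kilobase of the collagens in every group but GFP-negative cells of day 5 and was called in no comparison. In GFP-negative cells of day 4 that order rested on replicate 1, since Col4a1 lay above it in the other libraries, as it did in day 0 replicate 1. It measured 8839, 32664 and 23632 on day 0, where replicate 1 lay far below the others. From day 1 on its group means ranged from 14909.9 to 23861. Its share of all collagen RNA per kilobase went from 57.1% ± 2.55 on day 1 to 18.6% ± 1.52 in GFP-negative cells of day 5, where Col4a1 held 32.8% ± 2.49. Col15a1, the other multiplexin, reached 28.3 at most.

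Col6a1 and Col6a2, chains of the beaded collagen VI, rose by day 3. Col6a1 measured 33.1, 29.8 and 29.7 on day 2 and 199, 116 and 131 on day 3 (log2 fold change 2.20, standard error 0.24, adjusted p = 4.75e-06). Col6a2 measured 45.5, 51.4 and 29.0 on day 0 and 351, 343 and 264 on day 3 (log2 fold change 2.93, standard error 0.19, adjusted p = 7.55e-11). No libraries overlapped in either comparison. Col6a3, which usually completes that trimer, reached 67.9 at most. Col6a5, a related chain, went the other way, from 395, 559 and 595 on day 0 to 7.59, 33.8 and 30.3 on day 3 (log2 fold change -4.60, standard error 0.70, adjusted p = 1.57e-05), and the log2 fold change was -3.95 without day 3 replicate 1. Of the remaining collagens, Col8a2 fell from 223 ± 10.7 on day 0 to 57.3 ± 3.42 on day 3 (log2 fold change -1.95, standard error 0.23, adjusted p = 5.08e-07). Col28a1 rose from 2.13 ± 1.18 to 16.1 ± 4.19 (log2 fold change 2.49, standard error 0.46, adjusted p = 0.000144), a change of a few reads whose call ended without day 3 replicate 2 (log2 fold change 2.30, adjusted p = 0.00142). Col26a1 rose in GFP-negative cells from 189.6 ± 19.0 on day 4 to 544 ± 94.9 on day 5 (log2 fold change 1.51, standard error 0.23, adjusted p = 0.000156), a call that ended without day 4 GFP-negative replicate 1 or 3 or day 5 GFP-negative replicate 1 or 3 (log2 fold changes from 1.37 to 1.54, adjusted p from 0.00101 to 0.00181), with 5 added in place of 1 (log2 fold change 1.49, adjusted p = 0.000102) and under quantile normalization (log2 fold change 1.46, adjusted p = 0.000197). Col6a4, Col6a6 and Col7a1 were called in no comparison, though Col6a4 was called lower on day 3 than on day 0 with a pseudocount of 5 (log2 fold change -2.17) or without day 0 replicate 1 (-2.71).

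Of 23 integrins, 6 were lower on day 3 than on day 0 (background 6.12%). All of these calls ended in the fit of only the groups compared. Itga6 (ENSMUSG00000027111, chromosome 2, 71745616 to 71858416, plus strand), the laminin receptor chain of stem cells and neuroepithelium, was the alpha chain with the highest level per kilobase in every group, at 40% ± 0.582 of all integrin alpha RNA on day 0, 59.6% ± 0.120 on day 2 and 49.4% ± 1.41 in GFP-positive cells of day 5. It measured 4651, 5793 and 6347 on day 3 and 2865, 2997 and 2998 in GFP-positive cells of day 4, below the fold threshold (log2 fold change -0.91, standard error 0.12, adjusted p = 4e-06) but without overlap. Itga3, the other common laminin receptor chain, fell from 2141, 5566 and 4378 on day 0 to 1269.6, 1053 and 1019 on day 3 (log2 fold change -1.75, standard error 0.21, adjusted p = 1.02e-06). The call ended without day 0 replicate 2 (log2 fold change -1.47, adjusted p = 5.39e-06). Itgb4, the partner of Itga6 in the junctions of skin epithelium, fell from 289, 1165 and 1096 to 210.4, 122 and 109.6 (log2 fold change -2.34, standard error 0.43, adjusted p = 0.000136), and its call ended without day 0 replicate 2 or 3 or day 3 replicate 2 or 3 (log2 fold changes from -2.23 to -1.99, adjusted p from 0.00109 to 0.00149). Without day 0 replicate 1 the log2 fold change was -2.99. Day 0 replicate 1 lay low for Itga3, Itgb4 and Itgb7, between the other Day 0 libraries and those of day 3. Itga7 was called in no comparison.

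Itga5 (ENSMUSG00000000555, chromosome 15, 103344286 to 103366763, minus strand), the fibronectin receptor chain, held the second mean share of alpha RNA per kilobase in every group, at 14.7% ± 0.113 on day 2 and 35.1% ± 1.02 in GFP-positive cells of day 4. On day 0 that order rested on replicate 1, since Itga3 lay above Itga5 in the other libraries. Itga5 fell short of a call from day 0, at 3103, 4499.9 and 3651, to day 3, at 1858, 1662 and 1422 (log2 fold change -1.18, standard error 0.13, adjusted p = 2.06e-07). Itgav likewise was not called (log2 fold change -1.04, standard error 0.18, adjusted p = 9.38e-05), with means of 1893 ± 586 on day 0 and 905 ± 184 on day 3. Itga8, a receptor for nephronectin and fibronectin, was the only integrin called higher in the main comparisons, between day 3 and GFP-negative cells of day 4. It measured 42.9, 40.4 and 54.1 on day 3 and 267, 306 and 355 in GFP-negative cells of day 4 (log2 fold change 2.73, standard error 0.25, adjusted p = 1.26e-07). In GFP-positive cells of day 4 it stood at 63.1, 75.2 and 87.6 (log2 fold change -2.03, standard error 0.25, adjusted p = 4.42e-06). The GFP-negative libraries lay above all others of both groups. Itga1, a collagen receptor chain, was lower in GFP-positive cells on day 4, at 10.9, 12.9 and 21.4 against 101, 104 and 66.6 (log2 fold change -2.53, standard error 0.38, adjusted p = 4.35e-05), and lower there than on day 3, at 105, 107 and 125 (log2 fold change -2.87, standard error 0.38, adjusted p = 3.03e-06). Itga2, Itga2b, Itga10, Itga11, Itga4 and Itga9 were called in no comparison, but Itga9 was called lower on day 3 than on day 0 once day 0 replicate 1 was left out (log2 fold change -1.57, against -1.06 with all libraries).

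Itgb1 (ENSMUSG00000025809, chromosome 8, 128685654 to 128733200, plus strand), the shared beta chain of the laminin, collagen and fibronectin receptors, made up 68.4% ± 1.56 of beta RNA per kilobase on day 1 and 77.6% ± 0.821 in GFP-positive cells of day 5, and was called in no comparison. Its group means ranged from 6235 to 9088. Itgb5, a partner of Itgav, was lower in GFP-positive cells by 2.16-fold on day 5, at 1433, 1307 and 1471 against 3195, 2943 and 2958 (log2 fold change -1.11, standard error 0.16, adjusted p = 1.95e-05). This passed the adjusted p but not the fold threshold, and the libraries were separated. On day 4 the values were 1503, 1606 and 1527 and 2262, 2851 and 3504 (log2 fold change -0.87, standard error 0.16, adjusted p = 0.000364). Itgb8, which activates TGF-beta with Itgav, measured 86.1, 11.8 and 20.2 on day 0, 11.5, 4.82 and 3.67 on day 1, 59.3, 30.6 and 22.5 on day 2 and 101, 198 and 150.1 on day 3, a difference between day 0 and day 3 that was not called (log2 fold change 2.34, standard error 0.53, adjusted p = 0.00117). Without day 0 replicate 1, the highest of that day, it was called higher on day 3 against day 0 and day 2 and on day 2 against day 1, and with 5 added or under quantile normalization on day 3 against day 0. On day 4 its mean was 415 ± 65.7 in the GFP-positive gate, against 351 ± 144 in the other. Itgb3 fell from 81.1, 255 and 202 on day 0 to 52.9, 31.5 and 40 on day 3 (log2 fold change -1.97, standard error 0.36, adjusted p = 0.000123), a call that ended without day 0 replicate 2 or 3 or day 3 replicate 2 (log2 fold changes from -1.80 to -1.64, adjusted p from 0.00111 to 0.00139).

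Of the 5 chains named for leukocytes that were tested, 3 were lower on day 3 than on day 0 (background 6.12%). Itgb7 measured 400.3, 1101 and 857 on day 0, 118, 100.1 and 89.1 on day 3 (log2 fold change -2.82, standard error 0.37, adjusted p = 2.54e-06) and 13.5, 19.9 and 14.4 in GFP-positive cells of day 4 (log2 fold change -2.62, standard error 0.37, adjusted p = 6.89e-06). In GFP-negative cells of day 4 it measured 55.2, 62.3 and 45.3, also below every day 3 library, without a call. It was also lower in GFP-positive cells on day 5, at 18.9, 7.78 and 4.47 against 52.3, 36.5 and 33.3 (log2 fold change -2.06, standard error 0.37, adjusted p = 0.000305), a call that ended without day 5 GFP-negative replicate 1 or 2 or day 5 GFP-positive replicate 2 or 3 (log2 fold changes from -2.12 to -1.63, adjusted p from 0.00128 to 0.00339) and under quantile normalization (log2 fold change -1.54, adjusted p = 0.00385). The libraries were separated in each of these comparisons. Itgal measured 193, 349 and 248 on day 0 and 48.7, 42.4 and 79.7 on day 3 (log2 fold change -2.20, standard error 0.24, adjusted p = 2.57e-07). Itgb2, the partner of Itgal in leukocytes, stood at 19.6, 15.4 and 25.7 and 5.71, 2.13 and 5.14 (log2 fold change -2.04, standard error 0.43, adjusted p = 0.000545), a few reads, and its call ended without day 0 replicate 1 or 3 or day 3 replicate 2 or 3 (log2 fold changes from -2.18 to -1.70, adjusted p from 0.00125 to 0.00576), with no filter on low values (log2 fold change -2.04, adjusted p = 0.0018) and with 5 added in place of 1 (log2 fold change -1.44, adjusted p = 0.000206). Itgae, at 177, 94.9 and 105 on day 0 and 94.1, 101 and 107 on day 3, and Itgam were called in no comparison, except that Itgam was called lower from day 2 to day 3 with a pseudocount of 5 (log2 fold change -1.54). Of 5 leukocyte and platelet markers, Ptprc, Gp9 and Pf4 were under 10 in every group, and with Cd68 and Spi1 they summed to 577 to 758 on day 0 and 194 to 264 on day 3.

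By family, the calls between the gates were as follows. On day 5, 3 of 11 laminins, 5 of 41 collagens and 1 of 23 integrins were lower in GFP-positive cells (background 4.61%), and on day 4 2, 3 and 2 (background 3.63%). The share of integrins on day 5 was near the background. Over the laminins the median log2 fold change between the gates was -0.60 on day 4 and -1.24 on day 5, over the collagens 0.27 and -0.27, and over the integrins -0.39 and -0.58, against 0.01 and -0.00 over all genes. The change of the gate difference from day 4 to day 5 was tested as an interaction. It called 0 of the 75 members higher (background 0.0762%) and 0 lower (background 0.0333%), with 2 and 17 at an unadjusted p under 0.05 in limma. The gate differences of days 4 and 5 are therefore given side by side and not as differing. A sum over all laminin alpha chains per kilobase was 2155 ± 162 in day 5 GFP-negative and 678 ± 128 in GFP-positive cells, and over collagen IV 8688 ± 1886 and 2474 ± 98.4. Over integrin beta chains it was 3274 ± 99.5 and 2229.9 ± 103.

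**Figure D5:**
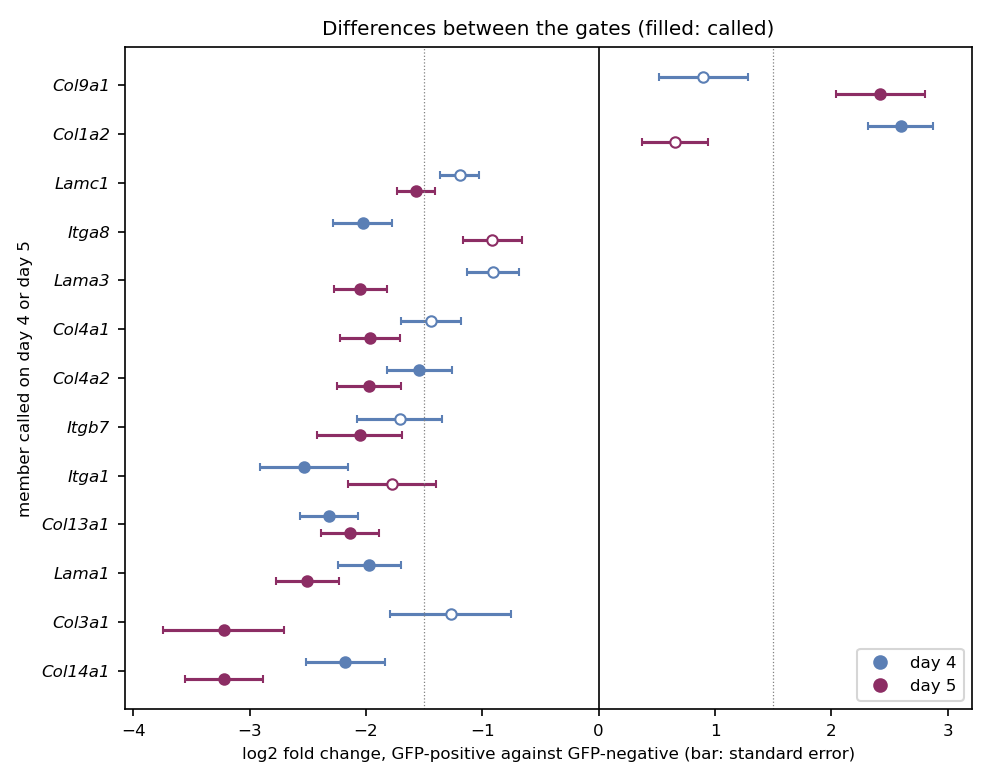
Points are log2 fold changes between the gates, GFP-positive over GFP-negative, on day 4 (blue) and day 5 (purple) for 13 members called on either day, with bars of 1 standard error, filled where called and open where not. Dotted lines mark the fold threshold of 1.5 in either direction. Apart from Col9a1 and Col1a2, the points lie to the left, lower in GFP-positive cells.

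Of 21 further basement membrane and matrix glycoproteins that are no members, 3 rose (background 5.91%) and 1 fell (background 6.12%) between day 0 and day 3. Frem2 rose (log2 fold change 3.19, standard error 0.13, adjusted p = 9.39e-14), as did Fras1 and Frem1, which form a basement membrane complex with it, by 3.15 and 2.75 on the log2 scale. Nid1, a linker of laminin and collagen IV, fell (log2 fold change -1.85, standard error 0.25, adjusted p = 4.15e-06), and the share that fell was near the background. Between the gates on day 5, 3 were lower in GFP-positive cells (background 4.61%): Frem1 (-3.35), Tnc (-2.77) and Fbln2 (-1.72). Fbn2, a microfibril protein, was the only one of the 21 called higher in GFP-positive cells on day 4 (log2 fold change 1.6, standard error 0.27, adjusted p = 0.000187; background 0.328%), and Dcn, a collagen-binding proteoglycan, the only one called lower (log2 fold change -2.22, standard error 0.41, adjusted p = 0.000472; background 3.63%). Of 20 genes of collagen biosynthesis and crosslinking, 3 were higher in GFP-positive cells of day 4 than on day 3 (background 3.33%), namely Lox (2.87) and Loxl3 (2.24), which crosslink collagen, and Bmp1 (1.55), which trims procollagen. The procollagen-processing genes Pcolce (-1.95) and Adamts14 (-1.59) were lower, a share near the background of 7.36%. On day 5, P4ha3 (-2.48) and Adamts14 (-1.54) were lower in GFP-positive cells (background 4.61%). Of 17 integrin adhesion adaptors, Zyx rose between day 0 and day 3 (log2 fold change 1.53, standard error 0.19, adjusted p = 9.2e-07; background 5.91%) and Fermt1 was lower in GFP-positive cells on day 5 (log2 fold change -1.57, standard error 0.26, adjusted p = 0.000135; background 4.61%). Both shares were near the background, and no other of the adaptors was called in the comparisons made.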

How the data were processed

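RNA-seq was analysed from 24 libraries in 8 groups of 3 replicates, grouped by the sample labels. The libraries were made from polyadenylated RNA of sorted live cells. Reads were pseudo-aligned by the authors, using kallisto (0.43.1 in the submitters' processing notes) on mm10 transcripts from Ensembl, both coding and non-coding, and the authors deposited a normalized signal per gene, counts divided by DESeq2 size factors. The DESeq2 version, the strandedness and how reads shared by similar genes were assigned are not given in the sources used here, so chains with overlapping or similar sequence, such as Col4a1 and Col4a2 at their 5′ ends, are uncertain where reads are shared. Columns with the authors' calls between stages were not used.

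Low values were whole multiples of the worth of 1 read, within 0.1, for 45.4% to 76.4% of values up to 20 reads, so the reads themselves could not be restored, and count models were left out. Depth came to an estimated 36973408 to 54623604 reads a library. Log2(normalized count + 1) of the 21005 genes that reached 10 in 3 or more libraries was fitted with limma 3.58.1 in R 4.3.3 over all 24 libraries, moderating variances along a mean-variance trend. Adjustment was by Benjamini-Hochberg within each contrast over all genes tested. A gene was called where its log2 fold change passed 1.5 in either direction with an adjusted p below 0.001, the study's thresholds. The added 1 understates changes of low genes. The fit was run on simulated data with normal errors and changes planted between the day 4 gates. That run checks the code, and not how well the model suits these counts.

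Alternatives added 0.5 or 5 in place of 1, dropped the filter or raised it to 50, and used quantile normalization, no trend, only the groups compared, the replicate number as a block, and each library left out in turn. Same-numbered libraries of different groups had a mean correlation of deviations of -5e-04 over 84 pairs of libraries (-0.284 to 0.401). The 6 pairs of gates of 1 day lay between -0.108 and 0.147. These correlations cannot show whether same-numbered gates came from the same organoids. The study sorted its day 4 and day 5 samples into both gates, and the labels do not say whether a number marks 1 pool. The main fit therefore left the number out. Per-kilobase values used the longest coding transcript of GENCODE M21, in which all 81 members have the same coordinates. Members are described by role, with values in each library for called members, for those with a group mean of at least 1000, and for the laminin and collagen IV chains. The values of 1 member are not reported here, though counts and medians over members include it. Members, gene lists and marker lists were chosen with earlier results of these data known. Tables were handled in Python 3.11.15 with pandas 2.3.3, numpy 2.4.6 and scipy 1.17.1, and figures drawn with matplotlib 3.10.9.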

Additional observations from a re-analysis of the deposited data

Results flagged for a closer look

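For Col1a2, the difference between GFP-positive and GFP-negative cells passed an adjusted p of 0.05, but not the threshold for calls, in the test of its change between days. It was 2.60 on day 4 and 0.66 on day 5 on the log2 scale, a limma interaction, Benjamini-Hochberg adjusted over all genes, of -1.94 (standard error 0.40, adjusted p = 0.0161), higher in GFP-positive cells on both days. Of 75 members it was the only one with an adjusted p under 0.05 for this test. It missed the threshold of 0.001 used for calls, and passed it in the fit of only the groups compared (adjusted p = 7.01e-05). With each library left out in turn the interaction ranged from -2.07 to -1.86, with adjusted p from 0.0031 to 0.0499.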

How the results depend on the processing

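Counts of called members kept within 1.5 times under a pseudocount of 0.5, no filter, a filter at 50, no trend and the replicate block, and no member called changed direction under any alternative. The fit of only the groups compared changed most counts: from day 0 to day 1, 0 fell; from day 1 to day 2, 0 rose and 1 fell; from day 2 to day 3, 0 rose; between day 0 and day 3, 2 rose and 0 fell. In that fit, 5 members were higher and 0 lower in day 4 GFP-negative cells against day 3, 2 were lower in GFP-positive cells on day 4, 2 rose in GFP-negative cells from day 4 to day 5, and 1 was called in the interaction. With 5 added, 1 fell from day 1 to day 2, 1 fell from day 2 to day 3 and 2 were lower in day 4 GFP-negative cells against day 3. Quantile normalization gave 1 lower from day 1 to day 2, 2 lower in day 4 GFP-negative cells against day 3 and 1 higher from day 4 to day 5 in GFP-positive cells, and it moved the median of all genes by less than 0.1 (log2) in each comparison. With 1 library left out, the counts ranged from 1 to 2 higher and 0 to 1 lower for day 2 against day 1, 2 to 5 higher and 0 to 1 lower for day 3 against day 2, 7 to 10 higher and 7 to 12 lower for day 3 against day 0, and 5 to 8 higher and 1 to 2 lower for day 4 GFP-negative cells against day 3. They ranged from 5 to 8 lower between the gates on day 4, 0 to 1 higher and 7 to 11 lower on day 5, 1 to 2 higher from day 4 to day 5 in GFP-positive and 2 to 6 higher in GFP-negative cells. Of the 73 calls, 23 ended in at least 1 of these fits and 26 held under every alternative. The fits of only the groups compared and those without 1 library hold fewer libraries by construction, and the cause of the other changes was not tested.

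With the replicate number as a replicate block, 8 members rose and 11 fell between day 0 and day 3, 7 were lower in GFP-positive cells on day 4 and 10 on day 5, and none of the 73 calls was lost. The deviations of same-numbered libraries had a mean correlation of -5e-04, which cannot show whether a number marks shared organoids. Depth limits most the members whose mean stayed under 10 normalized counts in every group: Col10a1, Col19a1, Col4a3, Itgad, Itgax and Itgb6.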
